A study of Mus musculus with 75 samples.

Results

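The nuclear genome effect in epididymal fat on a high-fat diet (HFD) was measured in 14 RNA-seq libraries of the 75 in the series, 7 with a C57 nuclear genome (C57n) and 7 with a C3H nuclear genome (C3Hn). Mouse lines with exchanged mitochondrial genomes (mt, carried by mtDNA) let each nuclear genome be read on both mitochondrial genomes. The C57n libraries came from 4 wild-type C57BL6/J mice (C57n:C57mt) and 3 exchange mice with C3H mtDNA (C57n:C3Hmt). The C3Hn libraries came from 3 exchange mice with C57 mtDNA (C3Hn:C57mt) and 4 wild-type C3H/HeN mice (C3Hn:C3Hmt). Every one of these mice was weaned on chow and ate the HFD from week 6 until week 12 to 13 of age. Sex is not stated in the labels, and each exchange line is a whole inbred nuclear genome on another mtDNA, so a nuclear effect here is the sum of all strain differences outside the mtDNA. The comparison was C57n minus C3Hn, averaged over both mitochondrial genomes, and a positive log2 change means higher in C57n. The 15 epididymal fat libraries on chow served only as background.

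Epididymal fat is a visceral depot whose adipocytes store triglyceride, release fatty acids on demand and secrete hormones such as leptin, adiponectin and resistin. As the depot expands on a fatty diet, macrophages and other immune cells accumulate between the adipocytes, many of them lipid-laden cells that express Trem2, Gpnmb and Itgax, and the collagen matrix is remodelled. C57BL/6 and C3H mice also differ at the H2 locus, which encodes the molecules that present antigen to T cells, and C57BL/6 mice carry an allele of H2-Ea that is not expressed. Bulk tissue was measured, so fewer cells of a type and less RNA per cell cannot be told apart in any result here.

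Library totals were 16.4 to 22.6 M expected counts (median 17.8 M) in C57n and 15.8 to 23.9 M (median 18.5 M) in C3Hn. On a principal component analysis the first component held 36.5% of the variance and separated the nuclear genomes, with C57n between -67.8 and -25.8 and C3Hn between 8.24 and 80.4. C3Hn:C3Hmt replicate 1 carried RNA of the epididymal epithelium, with a summed level of 7 markers of 7810 counts per M counts (CPM) against 0.32 to 22.5 CPM in the other 13 libraries. C3Hn:C3Hmt replicate 3 stood apart on the second component, at 102. The 7 white adipocyte markers summed to 25900 to 32700 CPM in C57n and 13100 to 33900 CPM in C3Hn, so all 14 libraries were rich in adipocyte RNA. The share of sequenced bases that differ from the reference, which is a C57BL/6J genome, was lower in C57n within each of the 2 sequencing runs that the deposited quality table gives as the run ID. It was 0.733 to 0.765% in C57n against 0.904 to 1.01% in C3Hn in run H31243, and 0.405 to 0.47% in C57n against 0.591 to 0.599% in C3Hn in run H31244. Reads mapped to the transcriptome were 87.2 to 90.4% in C57n and 84.7 to 88.2% in C3Hn; the part of this difference in any single gene was not tested.

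The nuclear genome moved a large part of the measured transcriptome. Of 15664 genes tested, 3894 differed between C57n and C3Hn at a Benjamini-Hochberg adjusted p under 0.05 in edgeR's quasi-likelihood test (24.9%; such genes are named called here), 1796 higher in C57n (11.5%) and 2098 lower (13.4%). A change of at least 2-fold was found for 1597 called genes (10.2%), 563 higher (3.59%) and 1034 lower (6.6%). For 891 genes (5.69%) the 7 C57n libraries and the 7 C3Hn libraries did not overlap at all. The median log2 change over all genes was -0.02. Counts of members called in each gene list below are to be read against the shares of 11.5% higher and 13.4% lower, unless another fit is named. Within run H31243 (3 C57n and 5 C3Hn libraries) 562 of 15774 genes were called, 305 higher and 257 lower. Within run H31244 (4 C57n and 2 C3Hn libraries) it was 370 of 16104, 218 higher and 152 lower. The joint fit that also held the chow libraries called 989 of 17687 genes higher and 1343 lower. Without the 7 libraries of both diets with epithelial RNA (over 50 CPM of those markers) it called 2231 of 16449 higher and 2534 lower. List counts from these fits are to be read against their own counts. As a scale, the mitochondrial genome, tested in the 14 HFD libraries as C57mt minus C3Hmt, gave 108 calls (0.689%), 41 higher (0.262%) and 67 lower (0.428%). That share became 0% without C3Hn:C57mt replicate 2 and 4.5% without C3Hn:C3Hmt replicate 2.

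**Figure D1:**
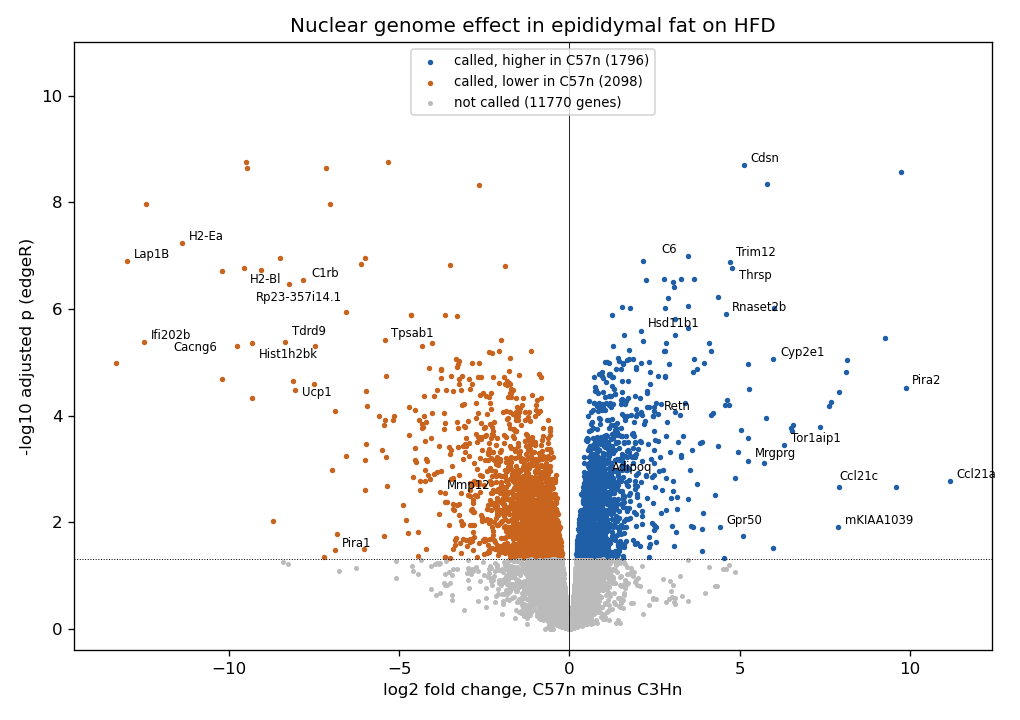
Each point is 1 gene in the comparison of 7 C57n with 7 C3Hn libraries on HFD, with the log2 change (C57n minus C3Hn) on the x axis and -log10 of the edgeR adjusted p on the y axis. The 1796 genes called higher lie to the right and the 2098 called lower to the left, and Cdsn reaches the smallest adjusted p among the labelled genes.

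The largest rises in C57n fell on genes of several unrelated functions. Cyp2e1, a cytochrome P450 that oxidises ethanol and fatty acids, lies at chr7:147949638-147960874 on the plus strand of build NCBIM37, the same assembly as mm9. It had a lowest, median and highest level of 399, 1205 and 2919.5 CPM in C57n, against 4.35, 30.5 and 85.5 CPM in C3Hn. The groups were separate, and the log2 change was 5.99 ± 0.53 (SE, n = 7 each; edgeR adjusted p = 8.82e-06). Cdsn, which encodes the adhesion protein corneodesmosin, lies inside the H2 region at chr17:35689073-35694125 on the plus strand and had 139, 159 and 230 CPM in C57n against 2.91, 5.54 and 6.59 CPM in C3Hn. Its change of 5.12 ± 0.18 had an edgeR adjusted p of 2.02e-09. Thrsp, which encodes the lipogenic nuclear protein Spot 14, lies at chr7:104561448-104566240 on the minus strand. It measured 404, 734 and 1505 CPM in C57n against 10.7, 43.5 and 72.9 CPM in C3Hn, a change of 4.77 ± 0.28 (edgeR adjusted p = 1.68e-07). All 7 C57n libraries were thus above all 7 C3Hn libraries for each of these genes, and each was called in every one of 24 alternative analyses.

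Trim12, a member of the tripartite motif family, and Rnaset2b, a ribonuclease gene, were likewise separate between the groups. Trim12 had 11.4, 13.3 and 14.6 CPM in C57n against 0.197, 0.586 and 0.742 CPM in C3Hn, with a log2 change of 4.71. Rnaset2b had 18.6, 23.2 and 39.7 CPM in C57n against 0.457, 0.694 and 2.03 CPM in C3Hn, with a change of 4.59. Mrgprg, an orphan G-protein-coupled receptor, was less even, with 0.246, 8.56 and 20.1 CPM in C57n against 0.0495, 0.18 and 0.395 CPM in C3Hn (5.26 ± 0.84, edgeR adjusted p = 0.000704). Gpr50, a receptor of the melatonin receptor family, ranged from 0 to 27.5 CPM in C57n and from 0.0548 to 1.73 CPM in C3Hn, and its adjusted p of 0.0126 became 0.836 without C57n:C3Hmt replicate 3. The deposited gene mKIAA1039 had 0, 5.81 and 21.4 CPM in C57n and 0, 0 and 0.395 CPM in C3Hn (7.90 ± 1.93, edgeR adjusted p = 0.0123), and 3 C57n libraries were at 0.

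Some of the largest changes sat in genes with close copies, whose reads the counting could split. Ccl21a, a chemokine that draws Ccr7-bearing cells, had 0.856, 16.3 and 43.8 CPM in C57n and no count in any C3Hn library. Over a floor of 3 counts for the C3Hn group this is at least 690-fold higher in C57n. Ccl21c followed at a constant ratio, with Ccl21a over Ccl21c between 2.97 and 3 in each C57n library, so the 2 genes are uncertain as separate readings. Summed, the Ccl21 genes gave 20.9 ± 19.9 CPM in C57n and 0 CPM in C3Hn (SD, n = 7 each). An exact permutation test over 3432 arrangements gave a two-sided p of 0.000583, the smallest the design can give. That value was fixed once a gene with counts in every C57n and no C3Hn library had been named, so it adds no support. Pira2, an activating paired immunoglobulin-like receptor of myeloid cells, had 2.77, 6.03 and 13.5 CPM in C57n and no count in C3Hn, at least 308-fold higher in C57n. Its relative Pira1 had 0, 0 and 2.96 CPM in C57n against 0, 7.84 and 30.4 CPM in C3Hn, and its adjusted p of 0.0339 held in 5 of 14 analyses that left out 1 library, becoming 1 without C3Hn:C3Hmt replicate 3. The 6 Pira genes summed to 22.7 ± 8.3 CPM in C57n and 120 ± 73.3 CPM in C3Hn (SD, n = 7 each; exact permutation test, two-sided p = 0.00175), the opposite direction to Pira2 alone.

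Tor1aip1 and Lap1B showed the same exchange between names. Lap1B, a synonym of Tor1aip1 in RefSeq, names lamina-associated polypeptide 1B of the nuclear envelope. Tor1aip1 had 53, 61.7 and 69.9 CPM in C57n and 0, 0 and 4.74 CPM in C3Hn. Lap1B was at 0 in every C57n library and had 36.1, 56.9 and 63.5 CPM in C3Hn, at least 2260-fold lower in C57n. Their sum was 61.5 ± 6.22 CPM in C57n and 55.5 ± 7.24 CPM in C3Hn (SD, n = 7 each), which an exact permutation test did not separate (two-sided p = 0.123).

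Several genes were near or at 0 in C57n and well counted in C3Hn. Ifi202b, an interferon-inducible DNA-binding protein, lies at chr1:175892700-175912975 on the minus strand. It had no count in C57n and 15.4, 39.4 and 56.8 CPM in C3Hn, at least 1600-fold lower in C57n. Cacng6, a calcium channel gamma subunit, had no count in C57n and 3.41, 5.62 and 7.61 CPM in C3Hn, at least 246-fold lower in C57n. For neither gene did any C57n library reach any C3Hn library. Tdrd9, a tudor-domain helicase known from the germ line, had 0, 0.0571 and 0.112 CPM in C57n against 1.65, 17.1 and 32.4 CPM in C3Hn. Hist1h2bk, a histone H2B gene, had 0, 0 and 0.274 CPM in C57n against 10.4, 13.6 and 23.4 CPM in C3Hn, and shares sequence with other H2B genes, so its level is uncertain. C1rb, a complement protease gene with the close copy C1ra, had 3 counts over the C57n group and a ratio of C3Hn to C57n of 286 (95% counting interval 97.5 to 1390).

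**Figure D2:**
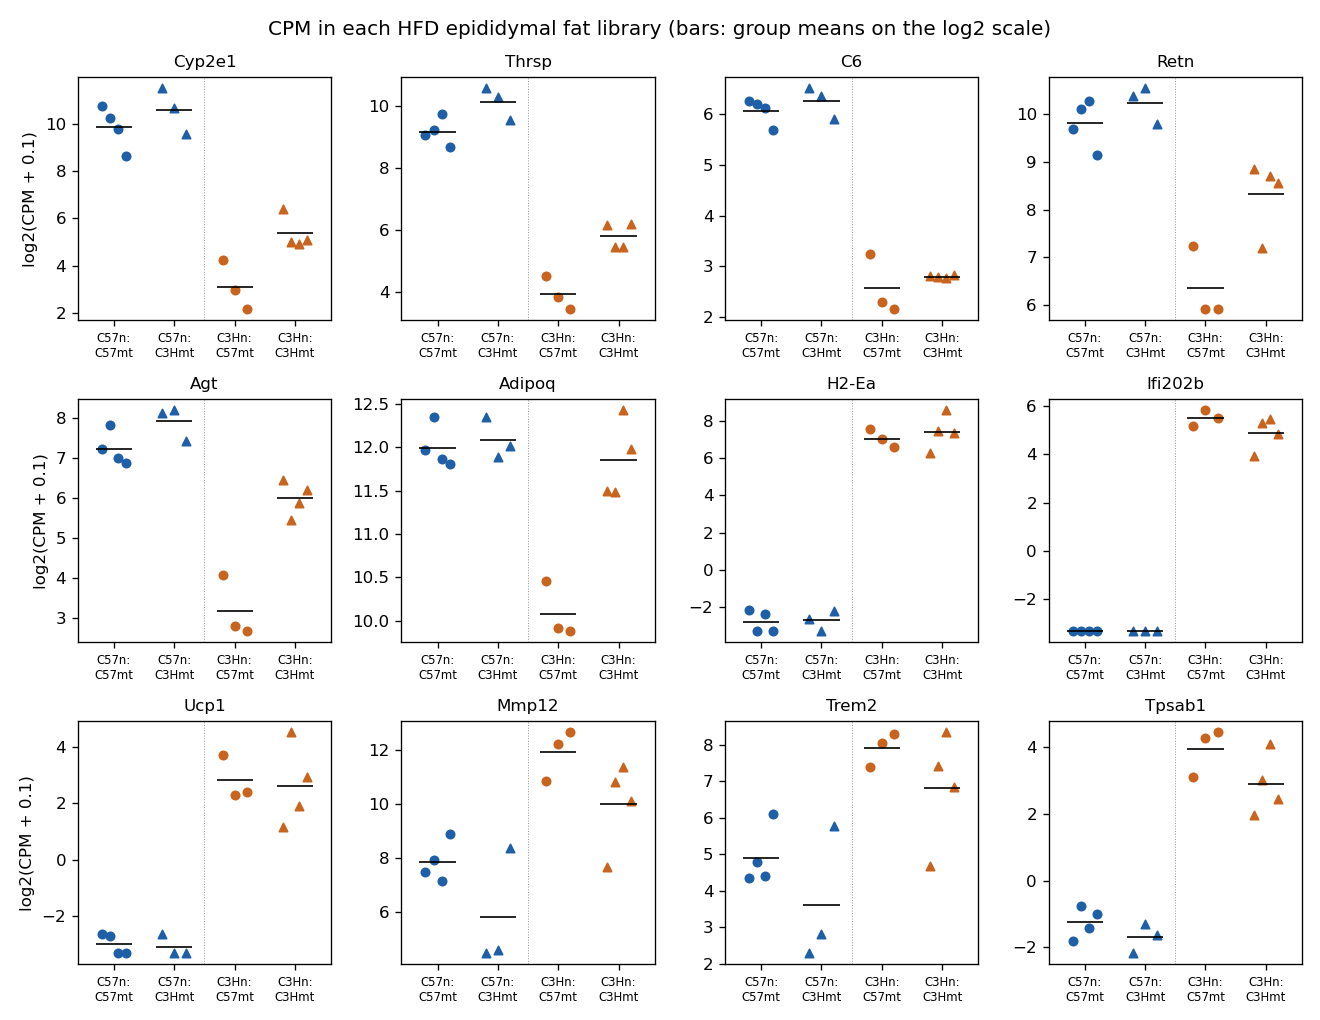
Values of 12 genes in each of the 14 libraries, as log2(CPM + 0.1), with C57n in blue on the left and C3Hn in orange on the right of each panel, and circles for C57 mtDNA and triangles for C3H mtDNA. Cyp2e1, Thrsp, C6, Retn and Agt are higher in all C57n than in all C3Hn libraries, H2-Ea, Ifi202b, Ucp1 and Tpsab1 lower, and Adipoq, Mmp12 and Trem2 overlap.

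Adipocyte genes were mostly higher in C57n. Of 20 adipocyte identity genes, 13 rose and 2 fell, with a median log2 change of 0.59 against -0.02 over all genes. Within runs H31243 and H31244 4 of the 20 rose in each, against 305 of 15774 and 218 of 16104 of all genes. In the joint fit that also held the chow libraries 5 rose, against 989 of 17687 of all genes. Adipoq, Lipe and Dgat2 were not called in that fit but were called when the 7 libraries with epithelial RNA were left out of it. Slc2a4, the insulin-responsive glucose transporter, had 118, 131 and 233 CPM in C57n against 24.7, 44.8 and 114 CPM in C3Hn (1.66 ± 0.23, edgeR adjusted p = 0.000245). Klf15, a glucocorticoid-responsive adipogenic factor, had 36.3, 45.3 and 61.1 CPM in C57n against 8.89, 24.8 and 38.2 CPM in C3Hn (1.46 ± 0.13, edgeR adjusted p = 9.33e-06). Slc2a4 was separate between the groups, and for Klf15 the highest C3Hn library passed the lowest C57n library. Adrb3, the beta-3 adrenergic receptor that triggers lipolysis, rose by 1.92 ± 0.30. Dgat2, which completes triglyceride synthesis, rose by 1.35 ± 0.21. Lpl, the lipoprotein lipase, rose by 0.62 and Pparg, the master regulator of adipocyte differentiation, by 0.47. Cebpb, an early adipogenic factor, fell by 0.65 and Fabp5, a fatty acid carrier shared with macrophages, fell by 0.78. The count of lower calls was 2 without C3Hn:C3Hmt replicate 1, 0 or 1 without any of the other 13 libraries, and 0 with run as a covariate or in the fit with the chow libraries. Beside these counts, the 7 white adipocyte markers had a median sum of 29100 CPM in C57n and 21900 CPM in C3Hn, with overlap. The 3 C3Hn:C57mt libraries had the 3 lowest sums, 13070, 14980 and 20170 CPM. The part of cell content in these changes was not tested.

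Secreted products of adipocytes followed the same direction, with 7 of 15 adipokine genes higher and 0 lower (median 0.58). Retn, the hormone resistin, had 569, 1101 and 1492 CPM in C57n against 60.2, 152 and 464 CPM in C3Hn (2.59 ± 0.32, edgeR adjusted p = 9.21e-05). Agt, angiotensinogen, had 118, 172 and 294 CPM in C57n against 6.28, 43.7 and 87.2 CPM in C3Hn (2.94 ± 0.27, edgeR adjusted p = 1.09e-05). Rbp4, the retinol carrier, had 451, 565 and 736 CPM in C57n against 70.4, 140 and 296 CPM in C3Hn (2.11 ± 0.19, edgeR adjusted p = 1.04e-05). For all 3 genes the groups did not overlap, and all 3 were called in each of the 24 alternatives. Adipoq, adiponectin, had 3593, 4018 and 5233 CPM in C57n and 940, 2871.5 and 5510 CPM in C3Hn. It rose by 1.05 ± 0.18 (edgeR adjusted p = 0.00126), but its groups overlapped, and the adjusted p was 0.114 in the fit with the chow libraries. Lep, leptin, did not pass the test, with 2090, 3206 and 5574 CPM in C57n and 1243, 2488 and 3624 CPM in C3Hn (0.58 ± 0.28, edgeR adjusted p = 0.152).

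Genes of lipid handling moved in both directions. Of 19 lipolysis and storage genes 8 rose and 2 fell (median 0.52). Mogat2, a monoacylglycerol acyltransferase, had 12.7, 27.5 and 41.1 CPM in C57n against 3.66, 8.39 and 12.3 CPM in C3Hn and rose by 1.70. Mgll, the monoglyceride lipase, fell by 0.49, and Adfp, the lipid droplet coat protein perilipin 2, fell by 0.96. The 2 lower calls of this list were 0 without C57n:C3Hmt replicate 2, 1 without C3Hn:C57mt replicate 1 or 3 or C57n:C57mt replicate 1, 2 or 3, and 0 in the fit with the chow libraries. Of 18 lipogenesis genes 4 rose (Thrsp, Scd1, Acaca and Acss2) and 1 fell (median 0.24). Scd1, the stearoyl-CoA desaturase, rose by 1.21 ± 0.24 (edgeR adjusted p = 0.00295). The member that fell was Elovl3, an elongase known from brown fat, with 0, 0.0603 and 1.03 CPM in C57n against 0.384, 1.13 and 8.1 CPM in C3Hn (-4.15 ± 0.72). Of 23 fatty acid oxidation genes 3 rose, or 6 without C3Hn:C3Hmt replicate 3, and 5 fell. Acadl, a long-chain acyl-CoA dehydrogenase, rose by 0.91 and Cpt1b, the muscle-type carnitine palmitoyltransferase, fell by 1.36, each with separate groups.

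Of 20 cholesterol synthesis genes 8 were called lower in C57n and 1 higher, and 11 did not pass (median -0.42). Sqle, squalene epoxidase, had 13.7, 21.4 and 25.3 CPM in C57n against 17.4, 30.6 and 64.4 CPM in C3Hn (-0.84 ± 0.17, edgeR adjusted p = 0.00365). Sc5d, a late-pathway desaturase, rose by 1.06 ± 0.17. This group depended on single libraries. The 8 lower calls became 4 without C3Hn:C57mt replicate 2 or C57n:C3Hmt replicate 2, and 5 without C57n:C57mt replicate 1 or 2 or C57n:C3Hmt replicate 1 or 3, and none was called lower within either run. With C57 mtDNA 10 members were lower (list median -0.68), against 9.12% of all genes in that comparison. With C3H mtDNA 0 were lower (list median 0.01), against only 3.05% of all genes. The difference between the 2 effects passed the test for no gene.

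**Figure D3:**
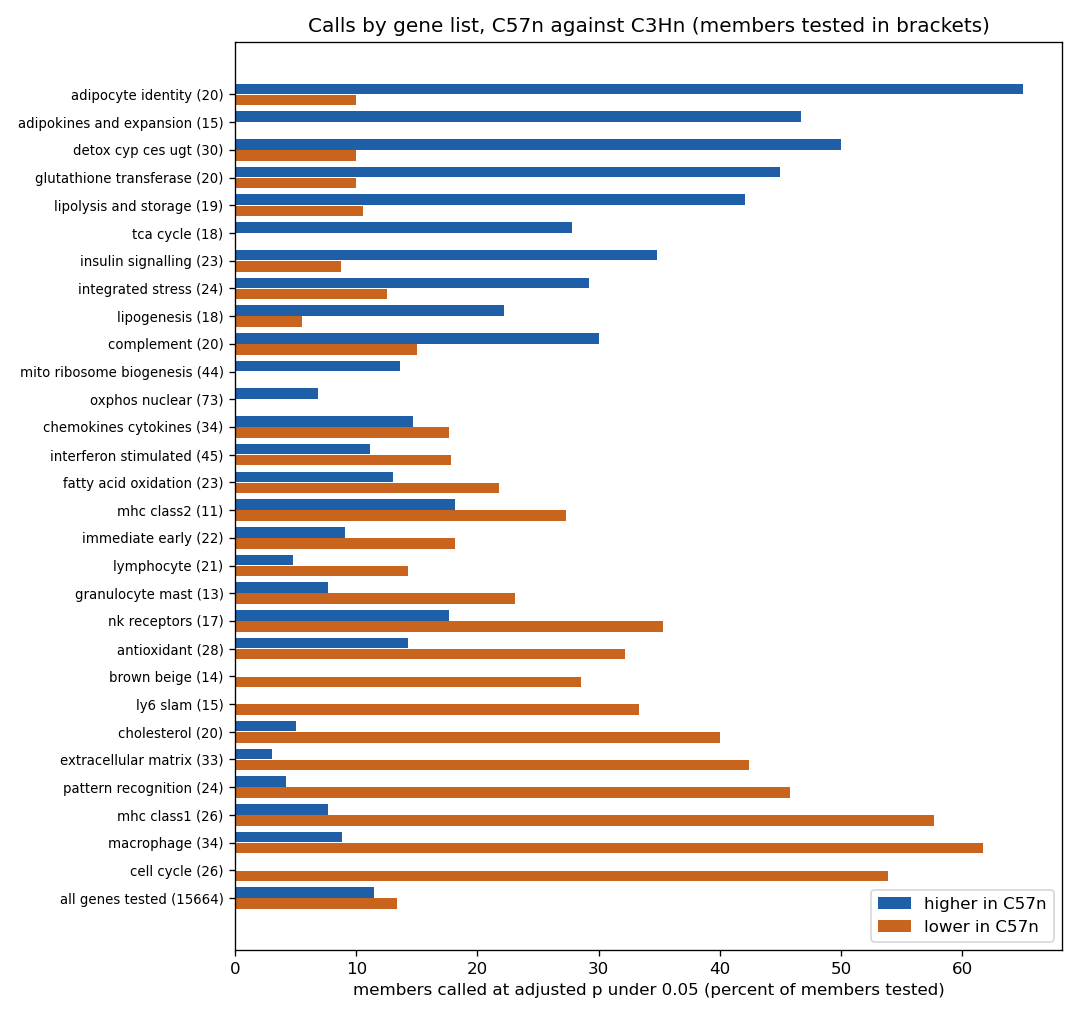
Percent of tested members called higher in C57n (blue) and lower in C57n (orange) on HFD for 29 gene lists, with all 15664 genes in the bottom row at 11.5% higher and 13.4% lower. The blue bar is the longer one for adipocyte identity, detoxification and glutathione transferase genes, and the orange bar for macrophage, class I and cell cycle genes.

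Nuclear genes of the respiratory chain gave few calls, 5 of 73 higher and 0 lower, at a median of 0.27 (unadjusted p under 0.05 for 37.4% of all genes). These calls are to be read against the called shares of 11.5% higher and 13.4% lower over all genes. The 37.4% is at a looser cut and in both directions, so it cannot be compared with them. Sdha, the catalytic subunit of complex II, rose by 0.55 ± 0.12. This count turned on 1 library: without C3Hn:C3Hmt replicate 3 it was 65, against 2 to 9 without any other single library, and without the 3 libraries with the most ribosomal reads it was 61. DESeq2 called 10 higher. Of 18 citric acid cycle genes 5 rose and 0 fell, among them Pdha1 (0.57), a pyruvate dehydrogenase subunit, and Cs (0.43), citrate synthase, and 11 rose without C3Hn:C3Hmt replicate 3 and 3 without C3Hn:C57mt replicate 3 or C57n:C3Hmt replicate 1. Of 44 genes of mitochondrial ribosomes and mtDNA maintenance 6 rose and 0 fell, the higher share near the 11.5% over all genes. The 6 were 22 without C3Hn:C3Hmt replicate 3, 7 without C57n:C57mt replicate 4 and 1 to 3 without any of the other 12 libraries. Of the 3 mtDNA-encoded genes in the tested set, mt-Nd4, a complex I subunit, had 5573.5, 9986.7 and 12797 CPM in C57n against 4077, 5961 and 7914 CPM in C3Hn (0.75 ± 0.17, edgeR adjusted p = 0.00596). Atpase6, a subunit of ATP synthase (0.61, edgeR adjusted p = 0.0345), passed in 5 of 14 analyses that left out 1 library, and Cox2, a subunit of complex IV (0.48, edgeR adjusted p = 0.0754), did not pass. Nnt, the mitochondrial transhydrogenase that carries a multi-exon deletion in C57BL/6J mice, had 20.6, 24.2 and 33.0 CPM in C57n and 18.2, 25.1 and 42.8 CPM in C3Hn (0.06 ± 0.13). A count over the whole gene does not show the deletion.

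Genes of brown and beige adipocytes were lower in C57n where they changed, 4 of 14 called lower and 0 higher (median -0.81). Ucp1, the uncoupling protein of heat-producing adipocytes, lies at chr8:85814247-85822355 on the plus strand. It had 0, 0 and 0.0621 CPM in C57n against 2.14, 5.19 and 22.6 CPM in C3Hn, with no overlap and an edgeR adjusted p of 2.23e-05. On counts this is a ratio of C3Hn to C57n of 342 (95% counting interval 117 to 1660), from 3 counts over the C57n group. Dio2, the deiodinase that activates thyroid hormone, fell by 1.39 ± 0.35 and Elovl3 and Cpt1b fell by the values already given. Cidea, a lipid droplet protein of brown adipocytes, had 1.37, 2.42 and 7.78 CPM in C57n and 2.22, 6.22 and 9.08 CPM in C3Hn and did not pass the test (-0.83, edgeR adjusted p = 0.0604). The 3 brown adipocyte markers summed to 7.25 to 17.2 CPM in C57n and 11.8 to 47.2 CPM in C3Hn, a level far under the white adipocyte markers in every library.

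Macrophage genes formed a group that was mostly lower, with 21 of 34 called lower in C57n and 3 higher (median -1.56). Mmp12, the macrophage elastase, had 22.1, 181 and 481 CPM in C57n against 203, 1868 and 6499 CPM in C3Hn (-3.79 ± 0.74, edgeR adjusted p = 0.00275). Trem2, the lipid-sensing receptor of macrophages in fat, had 4.76, 21.1 and 68.0 CPM in C57n against 25.6, 170 and 325 CPM in C3Hn (-2.86 ± 0.63, edgeR adjusted p = 0.00571). Both genes overlapped through a single C3Hn library, the epithelium-bearing C3Hn:C3Hmt replicate 1, which was the lowest of the C3Hn group. Gpnmb, a glycoprotein of lipid-laden macrophages, fell by 2.91, Itgax, the integrin CD11c, fell by 2.87 and Cd68, a lysosomal protein, fell by 2.05. Cx3cr1, the fractalkine receptor, had 3.08, 3.32 and 6.39 CPM in C57n against 6.22, 12.4 and 26.6 CPM in C3Hn (-1.84 ± 0.19) and Cd5l, a secreted macrophage protein, fell by 2.63. The general macrophage genes Csf1r (-0.45 ± 0.20, edgeR adjusted p = 0.121) and Emr1, which encodes F4/80 (-0.75 ± 0.31, edgeR adjusted p = 0.0928), did not pass.

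The 3 members that rose included 2 genes of resident tissue macrophages. Cd163, the haemoglobin scavenger receptor, had 53.7, 92.3 and 107 CPM in C57n against 32.3, 42.2 and 45.2 CPM in C3Hn (1.16 ± 0.13, edgeR adjusted p = 6.28e-05). Lyve1, a hyaluronan receptor also made by lymphatic vessels, had 54, 88.9 and 117 CPM in C57n against 27.2, 34 and 54.5 CPM in C3Hn (1.26). Cd163 was separate between the groups, and for Lyve1 the highest C3Hn library was just above the lowest C57n library. The summed level of 6 macrophage markers was 457, 836 and 1480 CPM in C57n and 552, 2360 and 4430 CPM in C3Hn. The highest sums were those of C3Hn:C57mt replicates 3 and 2, 4431 and 3189 CPM, and the part of macrophage content in these changes was not tested. The 21 lower calls became 19 to 25 when single libraries were left out, 18 in the fit with the chow libraries, 3 within run H31243 and 2 within run H31244. Of all genes 257 of 15774 were lower within run H31243 and 152 of 16104 within run H31244.

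**Figure D4:**
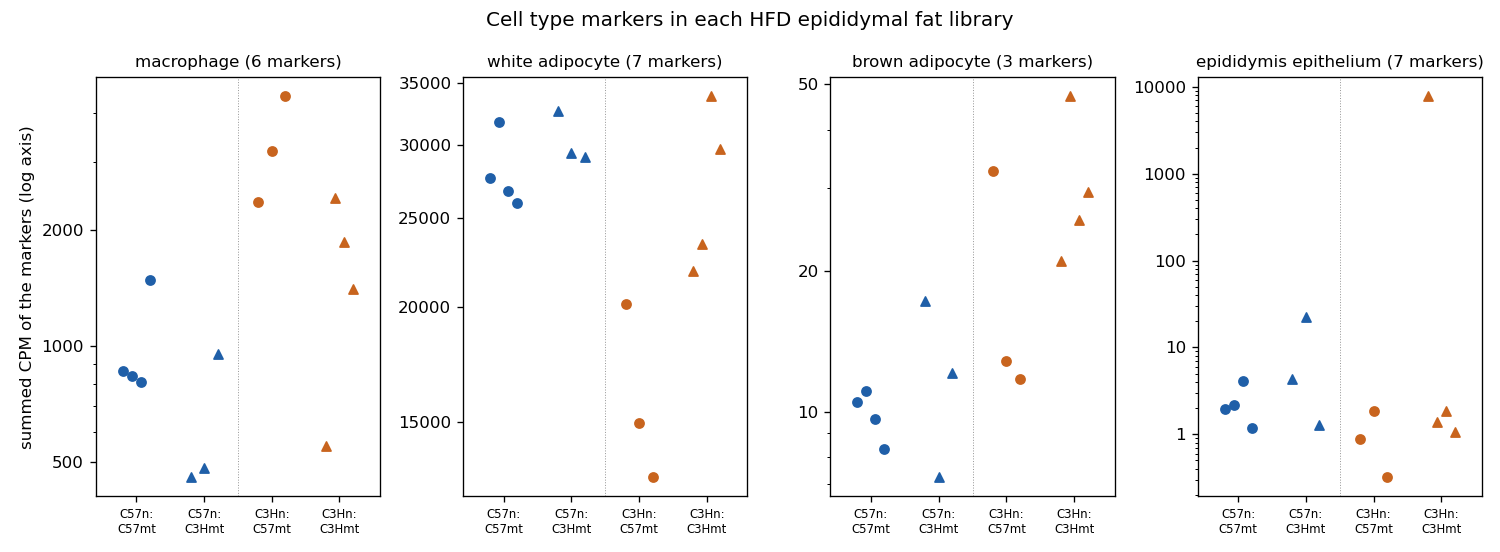
Summed CPM of markers of 4 cell types in each of the 14 libraries on a log axis, C57n left and C3Hn right. Macrophage markers span 457 to 1480 CPM in C57n and 552 to 4430 CPM in C3Hn, and the epididymis epithelium markers reach 7810 CPM in 1 C3Hn library only.

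Other immune cells were represented by few genes at low levels. Tpsab1, a mast cell tryptase, had 0.12, 0.274 and 0.494 CPM in C57n against 3.84, 8.51 and 21.8 CPM in C3Hn (-5.42 ± 0.44, edgeR adjusted p = 3.89e-06), and Csf3r, the G-CSF receptor of granulocytes, fell by 1.49 ± 0.18. Both had separate groups, and with Ltf, a neutrophil granule protein, they were the 3 of 13 granulocyte and mast cell genes that fell; 1 rose. Of 17 natural killer receptor genes 6 fell and 3 rose. Klrb1a had 0.435, 1.14 and 1.46 CPM in C57n against 5.03, 6.62 and 21.2 CPM in C3Hn (-3.17), but the Klr genes have close copies and their split is uncertain. Ncr1, an activating receptor of natural killer cells, fell by 2.06 ± 0.21. Of 21 lymphocyte genes 1 rose and 3 fell, the lower share near the 13.4% over all genes. The 1 higher call became 0 to 4 when single libraries were left out (4 without C3Hn:C57mt replicate 2, 0 without C57n:C57mt replicate 1 or 2). Ptprc, the pan-leukocyte antigen CD45, fell by 0.96 ± 0.21. Among 34 chemokine and cytokine genes 5 rose and 6 fell, shares near the 11.5% higher and 13.4% lower over all genes. Cxcl14 had 3.31, 4.84 and 8.51 CPM in C57n against 8.83, 35.7 and 112 CPM in C3Hn (-2.98), and Ccl24, an eosinophil attractant, had 11.2, 15.1 and 22 CPM in C57n against 3.61, 5.94 and 10.6 CPM in C3Hn (1.50). The 6 lower calls became 3 without C3Hn:C57mt replicate 3 or C57n:C3Hmt replicate 1 or 2, and the 5 higher calls 3 without C3Hn:C57mt replicate 2 or C57n:C3Hmt replicate 3.

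The antigen-presentation genes of the H2 locus on chromosome 17 differed widely. Among genes placed by symbol in the NCBIM37 annotation, 104 tested genes lay between the outermost placed H2 genes, at chr17:34075766-37620497 (3.54 Mb), and 39 of them were called (37.5%), against 25.5% of the 11782 genes elsewhere. The 7 and 7 libraries did not overlap for 12 of the 104 (11.5%), against 5.37% elsewhere. Of 26 class I genes 15 were lower in C57n and 2 higher (median -0.69). H2-Q2, a class Ib gene, had 0, 0.0457 and 0.368 CPM in C57n against 15.5, 29.2 and 34.7 CPM in C3Hn (-8.49 ± 0.46, edgeR adjusted p = 1.09e-07). H2-Bl, annotated as a polymorphic pseudogene at chr17:36201920-36221168 on the minus strand, had 0, 0 and 0.124 CPM in C57n against 8.66, 17 and 20.5 CPM in C3Hn. H2-Q10 fell by 2.66 and H2-Q1 fell by 1.72, and H2-D1, a classical class I gene, rose by 0.78 ± 0.21. Class I genes resemble each other and differ in number between haplotypes, so the assignment of reads among them is uncertain.

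Of 11 class II genes 3 were called lower and 2 higher (median 0.25). The 3 lower calls were 3 without any single library, while the 2 higher calls were 5 without C3Hn:C3Hmt replicate 3, 0 without C3Hn:C57mt replicate 2 or 3 or C57n:C3Hmt replicate 3, and 1 or 2 without any of the others. H2-Ea, the alpha chain of the I-E molecule, had 0, 0.0603 and 0.124 CPM in C57n against 77, 163 and 384 CPM in C3Hn (-11.36 ± 0.58, edgeR adjusted p = 5.86e-08), a total separation. H2-DMb2, a chain of the peptide-loading molecule H2-DM, had 3.62, 3.66 and 4.94 CPM in C57n against 19.4, 36.4 and 91.4 CPM in C3Hn (-3.33 ± 0.30). H2-Eb1, the beta chain that pairs with H2-Ea, went the other way, with 325, 749 and 876 CPM in C57n against 148, 277 and 648 CPM in C3Hn (1.05 ± 0.30, edgeR adjusted p = 0.0216). That call was lost without C3Hn:C57mt replicate 2 (edgeR adjusted p = 0.0503), C3Hn:C57mt replicate 3 (0.0597) or C57n:C3Hmt replicate 3 (0.0608). H2-Aa, the alpha chain of I-A, had 446, 994 and 1176 CPM in C57n and 267, 516 and 1459 CPM in C3Hn and did not pass (0.48 ± 0.32, edgeR adjusted p = 0.313). Neither did Cd74, the invariant chain (0.25), nor Ciita, the class II transactivator (-0.28).

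The promoters of H2-Aa and H2-Eb1 are shown because these chains were well counted in both nuclear genomes while H2-Ea was not. Class II promoters carry a Y box bound by the factor NF-Y, and capitals mark the motif CTGATTGG, searched on both strands in the 250 bases before the gene start. Sequences are from RefSeq, build GRCm38.p6, written 5′ to 3′ on the gene's strand. The H2-Aa window is chr17:34287824-34288073 on the minus strand, with the motif 51 bases before the start, and the H2-Eb1 window is chr17:34305617-34305866 on the plus strand, with the motif 62 bases before the start.
H2-Aa: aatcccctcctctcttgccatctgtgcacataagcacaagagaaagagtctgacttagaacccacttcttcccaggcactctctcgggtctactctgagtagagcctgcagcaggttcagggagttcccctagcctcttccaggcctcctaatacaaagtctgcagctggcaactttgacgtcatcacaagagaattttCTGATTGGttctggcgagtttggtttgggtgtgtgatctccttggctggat
H2-Eb1: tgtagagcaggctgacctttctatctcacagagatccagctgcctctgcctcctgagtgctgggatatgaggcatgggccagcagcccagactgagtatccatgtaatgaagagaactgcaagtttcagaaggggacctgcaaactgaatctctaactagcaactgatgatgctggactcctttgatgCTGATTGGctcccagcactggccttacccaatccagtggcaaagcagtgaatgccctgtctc
The letters were found in 3 of 7 class II members with a promoter entry (H2-Aa, H2-Eb1 and H2-Oa) and in 4.07% of all 27025 promoters. The reference is a C57BL/6J sequence and shows no C3H base.

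Of 24 pattern recognition genes, which sense microbial products, 11 fell and 1 rose (median -0.59). Tlr6, a co-receptor for bacterial lipopeptides, had 2.03, 3.11 and 4.85 CPM in C57n against 6.85, 13.2 and 16.8 CPM in C3Hn (-2.06 ± 0.18, edgeR adjusted p = 6.18e-06), and Nlrp1a, an inflammasome sensor with close copies, rose by 2.43. Tlr4, the endotoxin receptor, had 32.8, 34.7 and 41.8 CPM in C57n and 26.0, 33.6 and 44.0 CPM in C3Hn (0.02 ± 0.10). Of 45 interferon-stimulated genes 8 fell and 5 rose (median -0.16), shares near the 13.4% lower and 11.5% higher over all genes. Gbp1, a guanylate-binding protein with close copies, had 0.28, 0.822 and 1.18 CPM in C57n against 21.9, 50 and 61.5 CPM in C3Hn (-6.00 ± 0.33, edgeR adjusted p = 1.09e-07). The 5 higher interferon calls were 2 to 9 when single libraries were left out, with 9 without C3Hn:C57mt replicate 1, 2 without C3Hn:C57mt replicate 3, and 3 without C3Hn:C57mt replicate 2, C57n:C57mt replicate 1 or 2 or C57n:C3Hmt replicate 1 or 2. Of 15 Ly6 and SLAM family genes 5 fell and 0 rose, and Ly6c2, a monocyte surface antigen with close copies, fell by 2.35.

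Of 20 complement genes 6 rose and 3 fell. C6, a component of the membrane attack complex, lies at chr15:4677175-4765456 on the plus strand. It had 51.6, 73.8 and 91.3 CPM in C57n against 4.35, 6.83 and 9.37 CPM in C3Hn (3.47 ± 0.19, edgeR adjusted p = 1.01e-07). C4b, which is central to the classical pathway, had 881, 1085 and 1186 CPM in C57n against 80.3, 222 and 273 CPM in C3Hn (2.33 ± 0.21), and its close copy C4a had 1.37, 2.27 and 3.3 CPM in C57n against 4.44, 7.46 and 35.4 CPM in C3Hn (-2.29). The groups were separate for all 3 genes, though C4a and C4b share sequence and their split is uncertain.

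Of 33 matrix genes 14 were called lower in C57n and 1 higher, and 18 did not pass (median -0.57). Mmp2, a gelatinase, had 62.6, 81.6 and 95.8 CPM in C57n against 104, 233 and 359 CPM in C3Hn (-1.55 ± 0.18, edgeR adjusted p = 6.95e-05). Mmp9, the other gelatinase, had 6.16, 8.59 and 15.2 CPM in C57n against 2.03, 2.52 and 4.89 CPM in C3Hn (1.60 ± 0.23, edgeR adjusted p = 0.000311). Both were separate between the groups, in opposite directions. Col1a1, a chain of type I collagen, fell by 1.17 ± 0.21, Thbs2, a matricellular thrombospondin, fell by 1.35 and Timp1, an inhibitor of matrix proteases, fell by 2.38. The 14 lower calls became 7 in the fit with the chow libraries, where 1343 of 17687 of all genes were lower. They became 1 within run H31243 and 2 within run H31244, against 257 of 15774 and 152 of 16104 of all genes.

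Of 26 cell cycle genes 14 were lower in C57n and 0 higher (median -0.61). Rrm2, a ribonucleotide reductase subunit, fell by 1.02, Tk1, thymidine kinase, fell by 1.31 and Bub1, a spindle checkpoint kinase, fell by 1.08. The groups overlapped: Mki67, the Ki-67 proliferation antigen, had 8.47, 17.2 and 27.0 CPM in C57n and 11.2, 16.9 and 55.8 CPM in C3Hn (-0.63, edgeR adjusted p = 0.0186). The 14 lower calls became 7 without C57n:C3Hmt replicate 1, 8 without C57n:C3Hmt replicate 2 or C3Hn:C57mt replicate 3 and 9 without C3Hn:C57mt replicate 2, and none was called within either run. The summed level of the 26 genes was highest in C3Hn:C57mt replicates 3 and 2, at 762.2 and 702.6 CPM against at most 499.8 CPM in the other 12 libraries, and these were also the libraries with the highest macrophage and the lowest white adipocyte sums. The part of cell content in these changes was not tested. On chow 0 of the 26 were lower and 1 was higher, in the joint fit of 29 libraries. In that fit 5 of the 26 were lower on HFD. Promoters of cell cycle genes can carry the cell cycle homology region (CHR), here the letters TTTGAA, searched on both strands and marked in capitals. Of the 13 lower members with a promoter entry, the 4 promoters that hold the letters are shown. These 4 promoters were shown for holding the letters and do not stand for the other lower members, which lack them. They are from RefSeq, build GRCm38.p6, 5′ to 3′ on the gene's strand, the 250 bases before the start.
Cdc20 (chr4:118437344-118437593, minus strand): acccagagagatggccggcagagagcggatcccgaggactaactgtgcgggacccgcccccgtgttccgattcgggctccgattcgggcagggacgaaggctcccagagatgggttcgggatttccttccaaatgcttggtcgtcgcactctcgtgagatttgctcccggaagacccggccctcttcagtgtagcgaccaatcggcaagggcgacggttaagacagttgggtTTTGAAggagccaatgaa
Cdc2a (named Cdk1 in RefSeq, chr10:69352913-69353162, minus strand): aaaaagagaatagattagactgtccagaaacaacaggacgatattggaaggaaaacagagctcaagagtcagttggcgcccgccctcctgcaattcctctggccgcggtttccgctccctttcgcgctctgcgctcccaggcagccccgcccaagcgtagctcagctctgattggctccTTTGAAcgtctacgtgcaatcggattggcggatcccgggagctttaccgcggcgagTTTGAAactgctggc
Mki67 (chr7:135716380-135716629, minus strand): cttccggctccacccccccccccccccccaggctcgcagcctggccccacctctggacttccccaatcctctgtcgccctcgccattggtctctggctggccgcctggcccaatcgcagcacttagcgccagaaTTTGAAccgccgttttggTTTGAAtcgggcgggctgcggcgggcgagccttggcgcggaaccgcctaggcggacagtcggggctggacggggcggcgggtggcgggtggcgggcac
Top2a (chr11:99024190-99024439, minus strand): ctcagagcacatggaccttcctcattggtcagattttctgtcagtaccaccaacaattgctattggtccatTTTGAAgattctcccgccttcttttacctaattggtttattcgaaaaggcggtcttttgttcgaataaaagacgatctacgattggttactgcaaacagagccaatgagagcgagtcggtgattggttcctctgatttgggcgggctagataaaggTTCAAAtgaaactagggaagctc
Cdc20, an activator of the anaphase-promoting complex, fell by 0.79, Cdc2a, the mitotic kinase, fell by 0.90 and Top2a, a topoisomerase, fell by 0.59. The motif was found in 4 of the 13 lower members with a promoter entry, in 6 of 22 members in all and in 16.3% of 27025 promoters.

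Genes that metabolise foreign and oxidised compounds gave many higher calls in C57n. Of 30 cytochrome P450, carboxylesterase and conjugation genes 15 rose and 3 fell, against 11.5% higher and 13.4% lower over all genes (median 0.64). Adh1, alcohol dehydrogenase, had 101, 130 and 154 CPM in C57n against 26.9, 64.2 and 98.7 CPM in C3Hn (1.32 ± 0.14, edgeR adjusted p = 3.18e-05). Ces3, a carboxylesterase, had 705.5, 985 and 2119 CPM in C57n against 176, 581 and 771 CPM in C3Hn (1.65 ± 0.19). Within runs H31243 and H31244 7 and 5 of the 30 were higher, against 305 of 15774 and 218 of 16104 of all genes. Of 20 glutathione transferase genes 9 rose and 2 fell (median 0.50), with Gsta3 at 56.1, 111 and 231 CPM in C57n against 11.7, 21.3 and 29.8 CPM in C3Hn (2.53 ± 0.29). The 9 higher calls of that list were 7 to 12 without single libraries, 15 without the 2 C3Hn:C3Hmt libraries that stand apart and 4 in the fit with the chow libraries. Its 2 lower calls were 2 without C3Hn:C3Hmt replicate 2, C57n:C57mt replicate 2 or C57n:C3Hmt replicate 1, and 0 or 1 without any of the other 11. Of 28 antioxidant genes 4 rose and 9 fell. Gpx3, the plasma glutathione peroxidase, rose by 1.53, while Glrx, glutaredoxin, fell by 1.38 and Ucp2, an uncoupling protein homologue also made by macrophages, fell by 1.35. The 4 higher antioxidant calls were 8 without C3Hn:C3Hmt replicate 3.

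Hormone and growth factor genes added several clear differences. Hsd11b1, which regenerates active glucocorticoid, had 94.3, 125 and 166 CPM in C57n against 18, 25.9 and 58.2 CPM in C3Hn (2.11 ± 0.16, edgeR adjusted p = 2.56e-06). Igfbp3, a carrier of insulin-like growth factors, had 21.6, 44.2 and 63 CPM in C57n against 2.72, 7.61 and 16.5 CPM in C3Hn (2.48 ± 0.30). Neither gene overlapped between the groups. Esr1, the oestrogen receptor alpha, rose by 1.22. Of 9 steroid hormone genes 3 rose and 0 fell, and of 23 insulin signalling genes 8 rose and 2 fell. The 8 became 5 without C3Hn:C57mt replicate 2 or 3 or C57n:C3Hmt replicate 2, and the 2 became 1 without any of 11 libraries. Ptpn1, a phosphatase that dampens insulin signalling, fell by 0.66 and Foxo1, a transcription factor that insulin restrains, rose by 0.71.

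Of 24 integrated stress response genes 7 rose and 3 fell. Phgdh, the first enzyme of serine synthesis, rose by 1.28 ± 0.18, and Atf3, a stress-induced factor, fell by 1.51 ± 0.34. The 7 were 3 without C57n:C3Hmt replicate 1, 4 without C3Hn:C57mt replicate 3 and 11 without C3Hn:C3Hmt replicate 3, and the 3 lower calls were 5 without C57n:C3Hmt replicate 3. Of 22 immediate early genes 2 rose and 4 fell, including Egr2 (-1.48), shares near the 11.5% higher and 13.4% lower over all genes. The 2 became 0 without C3Hn:C57mt replicate 2 or 3, C57n:C57mt replicate 1 or 2 or C57n:C3Hmt replicate 2 or 3. Of 18 clock genes only Bhlhb2 (-0.93) and Bhlhb3 (-1.51), repressors also named Bhlhe40 and Bhlhe41, passed, both lower. That share is near the 13.4% lower over all genes. Of 19 endothelial genes 3 rose, among them Emcn (0.75), a count that was 0 without C3Hn:C57mt replicate 2 or 3 or C57n:C3Hmt replicate 1 and 8 without C57n:C57mt replicate 3.

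The nuclear comparison gave calls on both mitochondrial genomes. With C57 mtDNA (4 C57n and 3 C3Hn libraries) 2875 genes were called (18.4%), 1447 higher (9.24%) and 1428 lower (9.12%). With C3H mtDNA (3 C57n and 4 C3Hn libraries) 927 were called (5.92%), 449 higher (2.87%) and 478 lower (3.05%). Run H31243 held 0 of these C57n libraries and 3 of these C3Hn libraries, so nuclear genome and run cannot be fully told apart with C3H mtDNA. With run as a covariate the counts were 2538 with C57 mtDNA and 483 with C3H mtDNA. These 2 comparisons share no library, but both come from 1 fit and share its spread estimate, so their calls are not independent. The 2 comparisons had 732 called genes in common, which is 25.5% of the first and 79% of the second set. All 732 had the same sign. Retn rose by 3.37 with C57 mtDNA and by 1.82 with C3H mtDNA, Cyp2e1 by 6.70 and 5.28, and Thrsp by 5.22 and 4.32. Adipoq rose by 1.91 with C57 mtDNA (edgeR adjusted p = 0.000628) and was at 0.20 with C3H mtDNA (edgeR adjusted p = 0.725). The test of the difference between both effects called 0 genes in edgeR (0%; 1138 at an unadjusted p under 0.05, 7.27%), against 68 in DESeq2, so a larger effect with either mtDNA was not shown for any gene by the main test. The count with C57 mtDNA was 1241 without C3Hn:C57mt replicate 3, 1549 without C3Hn:C57mt replicate 2, 1779 without C57n:C57mt replicate 2 and 4585 without C3Hn:C3Hmt replicate 3. That with C3H mtDNA was 416 without C57n:C3Hmt replicate 1 and 442 without C57n:C3Hmt replicate 2.

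On chow the same comparison called 2672 of 17687 genes (15.1%), 1415 higher in C57n (8%) and 1257 lower (7.11%), with 5632 at an unadjusted p under 0.05 (31.8%). The 2672 became 1224 without chow C3Hn:C3Hmt replicate 2 and 4355 without chow C3Hn:C57mt replicate 2. Of 15661 genes tested on both diets, 3894 were called on HFD and 2220 on chow. The HFD calls are from the fit of the 14 HFD libraries and the chow calls from the joint fit of 29 libraries. Within the joint fit of all 29 libraries, HFD gave 2332 calls of 17687 genes against 2672 on chow, so the larger HFD count was not seen there. Of the 15661 genes, 1129 were called on both, which is 29% of the HFD calls and 50.9% of the chow calls. Of these, 1099 had the same sign. The test of the difference between diets called 0 genes in edgeR (0%; 3627 at an unadjusted p under 0.05, 20.5%) and 997 in DESeq2. It gave 719 calls without HFD C3Hn:C3Hmt replicate 3, 121 without chow C57n:C3Hmt replicate 2, 74 without chow C3Hn:C57mt replicate 2 and 1 without HFD C57n:C57mt replicate 1. All chow libraries carry the ID of another sequencing run, so diet and run cannot be told apart, and 6 of the 15 chow libraries had over 50 CPM of epididymal epithelium markers. These sums were uneven, at 57.32, 17710, 25930 and 27720 CPM in C57n and 2223 and 3778 CPM in C3Hn. Of 9 epididymis epithelium genes 4 were called higher on chow (median 4.35). The joint fit without the 7 libraries with epithelial RNA left out 6 chow libraries and 1 on HFD. It gave 4765 HFD calls of 16449 genes against 2135 on chow, so the larger HFD count was seen in that fit. Of the 2135 chow calls, 1315 were among the 2672. The chow values that follow are from the fit with all libraries.

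H2-Ea was at -13.29, Trim12 at 5.02 and Cdsn at 3.95 on the log2 scale on chow, all called. Cyp2e1 changed by 5.99 on HFD and 3.56 on chow (edgeR adjusted p on chow = 0.000177), and Thrsp by 4.77 on HFD and 1.98 on chow (edgeR adjusted p on chow = 0.0119). Retn was at 2.59 on HFD and 1.04 on chow, where it did not pass (edgeR adjusted p = 0.104). Mmp12 was at -3.79 on HFD and -5.04 on chow. Of the macrophage list 16 of 34 were lower on chow (median -1.34) and of the matrix list 13 of 33 (median -0.78). Of the 20 adipocyte identity genes 0 were higher on chow and 1 was lower (median -0.17), and of the 20 cholesterol synthesis genes 6 were higher and 1 lower (median 0.40). In the joint fit that gave these chow counts, 5 of the adipocyte identity genes were higher on HFD and 4 of the cholesterol synthesis genes lower.

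**Figure D5:**
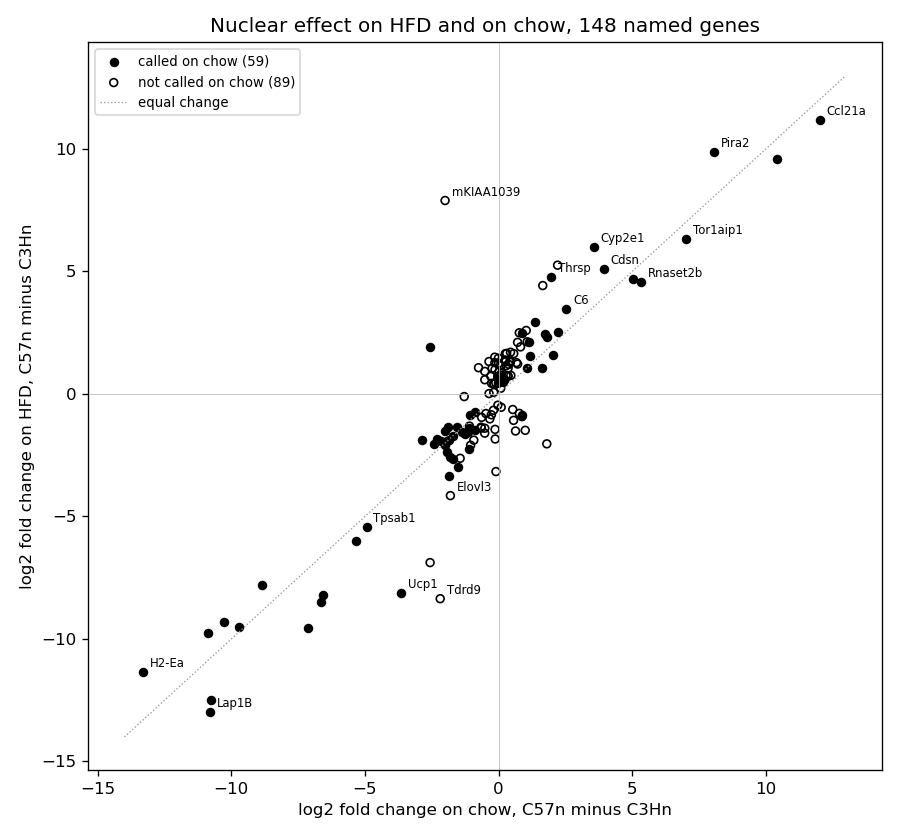
Log2 change of C57n minus C3Hn on HFD (y axis) against that on chow (x axis) for the 148 genes chosen by the naming rule, with 59 also called on chow and 89 not; the dotted line marks equal change. The genes were chosen on the HFD comparison, and H2-Ea, near 0 in C57n, lies near the line at the lower left.

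Of the 148 named genes 142 were called on HFD, and 36 of them were called in each alternative analysis in which they were tested (24, or 23 for Tor1aip1), which included 2 within-run fits of 8 and 6 libraries. Among these 36 were Cyp2e1, Thrsp, Cdsn, Retn, Rbp4, Agt, C6, C4b, Hsd11b1, Igfbp3 and Klf15, which rose in C57n. Ucp1, H2-Ea, Ifi202b, Tpsab1, Cx3cr1, Tlr6 and Mmp2 were among those that fell. None of the 142 changed sign in any of these alternatives.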

How the data were processed

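RNA-seq of whole epididymal fat was analysed from tables of RSEM expected counts per gene, deposited by the authors. Per the submitters' processing notes RSEM, DESeq2 1.10.1 and the mm9 build were used; for the aligner, annotation, RSEM version and strand setting the entry is: not given in the sources used here. A quality table gives, per the file headers, the fraction of differing bases and the percent of reads that were ribosomal or mapped to the transcriptome. The table on HFD held 21983 genes, and 68.4% of its expected counts in these libraries were whole numbers as deposited. Columns were matched to samples by the titles, and replicate numbers follow accession order and pair nothing. Codes in the titles are the run IDs of that quality table, per the file headers.

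Expected counts were rounded, filtered with edgeR's filterByExpr (minimum count 10, total 15, 70% of the smallest group), scaled by TMM and tested with edgeR 4.0.16 (quasi-likelihood, R 4.3.3) over 4 groups of 14 libraries, which left 10 residual degrees of freedom. Benjamini-Hochberg adjustment ran over all genes of each of 7 comparisons. P-values measure the spread between these libraries. Chow and the difference between diets came from 1 joint model of 29 epididymal fat libraries on both diets, and the HFD values set beside chow come from the 14-library fit. CPM are TMM-scaled. The procedure was tested on simulated data.

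Fold bounds use a floor of 3 counts over a group, and these and the 95% intervals cover counting error only. Genes named are the 12 highest and 12 lowest changes among called genes (mean of at least 5 CPM in the higher nuclear genome, same sign with both mtDNAs, clone-type names left out), up to 4 called members of each list with the smallest p, up to 6 per difference of effects, and Nnt, Lep, Adipoq, Mest, Ucp1, Tlr4, mt-Nd4, Cox2, Atpase6 and 2 sex-linked genes. Other list members named with values were chosen after their values were seen. The comparison, the members of 40 lists (807 tested) and the rule were chosen with earlier results of these data known. Gene positions are from the NCBIM37 annotation, in which 134 of the 148 named genes were placed by symbol, and promoters are from RefSeq (GRCm38.p6), matched for 10921 tested genes. Alternatives were RLE size factors, DESeq2 1.42.0, no filter, run as a covariate, each run alone, the joint model and leaving out each library. Leaving out the 2 libraries that stand apart, the 3 with most ribosomal reads, or 7 with epithelial RNA was added after the data were seen. Results for some genes that the rule names are not reported here.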

Additional observations from a re-analysis of the deposited data

Results flagged for a closer look

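In 60 sets of 4 libraries (1 gene in 1 group), 9 held a library whose gap to the nearest other one, as a share of the range of its group, was over Dixon's 95% critical value. At that value chance flags about 1 in 20 groups of normally distributed values. Where the other 3 libraries are at 0, any count gives a ratio of 1, so that rate does not apply. The cause was not tested in any case. In C3Hn:C3Hmt replicate 3 the ratio was 1 for mKIAA1039 (0.395 CPM against 0 in the other 3), for Tor1aip1 (4.74 CPM against 0) and for Pira1 (20.1 CPM against 0). In C3Hn:C3Hmt replicate 1 it was 0.93 for Cyp2e1, at 85.5 CPM against 30.5 to 34.4 CPM, and 0.849 for Rnaset2b, at 2.03 CPM against 0.457 to 0.694 CPM. In C57n:C57mt replicate 4 it was 0.891 for Gpr50, at 27.5 CPM against 3.33 to 5.96 CPM, and 1 for Rp23-357i14.1, at 0.171 CPM against 0. Hist1h2bk had a ratio of 1 in C57n:C57mt replicate 2, at 0.274 CPM against 0, and C1rb a ratio of 1 in C57n:C57mt replicate 1, at 0.0621 CPM against 0. The values of Hist1h2bk, C1rb, Rp23-357i14.1 and mKIAA1039 lie at a few counts of a library, so they say little about level.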

How the results depend on the processing

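No paired analysis was possible because each library comes from a mouse with a single nuclear genome. The replicate numbers used here follow accession order and pair no samples. The nuclear effect on HFD, 3894 calls, gave 2798 to 5678 without single libraries, and 2332 in the joint fit of 29 libraries, 562 within run H31243 and 370 within run H31244, where 8 and 6 libraries remain. With C57 mtDNA the count was 1373 in the joint fit, 4957 without the 2 C3Hn:C3Hmt libraries that stand apart, and 1241 to 4585 without single libraries. With C3H mtDNA it was 1659 in DESeq2, 483 with run as a covariate, 359 in the joint fit, 1670 in the joint fit without the 7 libraries with epithelial RNA, and 416 to 1306 without single libraries. The difference between these effects gave 68 calls in DESeq2, 1 without the 3 libraries with most ribosomal reads, and 0 to 9 without single libraries. The mtDNA effect was called for 6.55% of genes in DESeq2, 0.301% with no filter, 0% in both joint fits, 6.27% without the 3 libraries with most ribosomal reads, and 0 to 4.5% without single libraries. Chow gave 1224 to 4355 and the difference between diets 0 to 719 without single libraries, and 997 in DESeq2. For these shifts the cause was not tested. Of the 142 called named genes 36 were called in every alternative in which they were tested, 106 lost the call in at least 1 and 0 changed sign. Of the named genes that were not called, 3 changed sign. Nnt, 0.06 in the main analysis, was at -0.06269 within run H31243 and at -0.01479 to 0.1681 without single libraries. Mest, a marker of fat expansion (-0.11 in the main analysis), was at 0.0968 within run H31243, at 0.1746 within run H31244 and at -0.628 to 0.1011 without single libraries. Tlr4, 0.02 in the main analysis, was at -0.05993 with run as a covariate, -0.1041 within run H31244, -0.03815 without the 2 libraries that stand apart, -0.02501 in the joint fit without 7 libraries, and -0.03774 to 0.06088 without single libraries. Each nuclear genome and its exchange line differ in their spread over the 2 runs, and no C57n:C3Hmt library was in run H31243. Genes at a few counts per library are limited by depth.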

Other observations

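Several Serpina3 genes, which encode secreted serine protease inhibitors, were higher in C57n; they were chosen after their values were seen. Serpina3b had a lowest, median and highest level of 5.99, 10.1 and 14.1 CPM in C57n against 0.346, 0.74 and 1.35 CPM in C3Hn, a log2 change of 3.66 ± 0.33 (edgeR adjusted p = 8.69e-06) on HFD and 2.81 on chow. Serpina3c had 249.9, 293 and 324 CPM in C57n against 53.7, 123 and 193 CPM in C3Hn, and changed by 1.36 ± 0.18 on HFD (edgeR adjusted p = 0.000172), against 0.22 on chow, where it did not pass. Serpina3m had 5.67, 12.3 and 15.6 CPM in C57n against 1.39, 3.51 and 5.59 CPM in C3Hn (1.55). Serpina3a lay under 1.3 CPM in every library and also did not overlap between the groups. Serpina3h, at 0.123, 0.559 and 1.18 CPM in C57n against 0.571, 2.47 and 3.29 CPM in C3Hn, changed the other way (-1.46, edgeR adjusted p = 0.0417). These genes are close copies, so the split of reads among them is uncertain. In the window chr12:105000001-110000000 that holds them, 10 of 26 tested genes were called (38.5%, against 24.9% of all genes tested), 6 higher and 4 lower in C57n. This window came from the top of a ranking of 302 windows by the share of genes whose groups did not overlap. Its high share thus follows from that choice and is no separate result.

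Lists of other tissues gave few calls. Of 8 smooth muscle genes 1 rose, Mylk, the myosin light chain kinase, with 152, 228 and 262 CPM in C57n against 55.7, 89.3 and 145 CPM in C3Hn (1.32 ± 0.18, edgeR adjusted p = 0.000189). Of 9 mesothelial genes 1 rose, Upk3b, a uroplakin (adjusted p = 0.0484 in edgeR), a call that held in 6 of 24 alternatives, and the list gave 4 calls without C3Hn:C57mt replicate 2. Of 11 skeletal muscle genes 2 rose and 1 fell, and the lower call was lost without C3Hn:C57mt replicate 1 or C57n:C3Hmt replicate 1 or 2. None of 9 epididymis epithelium, 4 keratinocyte and mammary, 4 erythroid or 4 sex-linked genes passed the edgeR test.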
